A study of Mus musculus with 4 samples.

Results

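Alveolar type 2 (AT2) cells are the cuboidal epithelial cells of the lung alveolus that make, store and secrete surfactant, the film of phospholipid and protein that keeps the airspaces open. They pack it into lamellar bodies, carry MHC class II on their surface, make lysozyme and chemokines, and act as progenitors of the flat type 1 cells through which gas is exchanged. They were selected on transcript levels from single-cell libraries of mouse lung. A barcode had to show 300 or more genes, have no more than 10% of its transcripts from mitochondria, and hold at least 2 UMIs (unique molecular identifiers, one per captured transcript) of Lamp3, a lamellar body membrane protein, 1 of Slc34a2, the phosphate transporter of AT2 cells, and 5 of Sftpb, surfactant protein B. Barcodes with any UMI of the endothelial gene Cdh5, more than 1 of the fibroblast gene Col1a2 or more than 3 of the macrophage genes C1qa, C1qb and C1qc together were left out. These rules found 1174 AT2 barcodes among 15793 that passed the filters and 16350 deposited.

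The series compared lungs of WT mice and of LAIR1KO mice, which lack LAIR1, an inhibitory receptor of immune cells that binds collagens. Both genotypes were studied as normal lung, with no tumor given, and as lung bearing B16/F10 tumors, a mouse melanoma line. Each of the 4 groups was 1 library of 3 replicates marked with antibody hashtags, so that library and group cannot be told apart. The labels do not say whether a replicate is 1 mouse, and p-values measure only the spread between these replicates. Strain, age and the route and time of tumor growth are not given in the sources used here. By transcripts of the sex chromosomes, the WT normal library came from male and the other 3 from female mice: Xist, the RNA of the silenced X, had a mean of 1.52 CPM (a gene's UMIs per 1000000 UMIs of AT2 cells) in WT normal lung and of 949.9, 1075 and 1009 CPM in LAIR1KO normal, WT tumor-bearing and LAIR1KO tumor-bearing lung, and Ddx3y, on the Y chromosome, had 94.5 CPM ± 12.0 (SD, n = 3) in WT normal lung and 0 in the others. Sex therefore differs together with genotype in normal lung and with tumor in WT lung, and cannot be told apart from either there.

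There were 327 AT2 barcodes in WT normal, 101 in LAIR1KO normal, 503 in WT tumor-bearing and 243 in LAIR1KO tumor-bearing lung. Their median depth was 12384, 10738, 8340 and 8465 UMIs, above that of the other barcodes of the same libraries (6437, 5720, 5142 and 4606). No hashtag could be called for 45.3, 63.4, 58.5 and 53.5% of them, and their median hashtag counts were 99, 65, 39 and 48 against 202, 269, 130 and 124 in the other barcodes. By replicate, 36, 54 and 68 AT2 cells were left in WT normal lung, 3, 12 and 20 in LAIR1KO normal lung, 37, 74 and 78 in WT tumor-bearing lung and 22, 14 and 69 in LAIR1KO tumor-bearing lung. LAIR1KO normal replicate 1, with 3 cells, was below the minimum of 10 and is not in the tests of genes, which therefore rest on 11 replicates and on 2 for that group. Across libraries 27 filtered barcodes recurred, 7 of which were AT2 barcodes in one library, and no barcode was AT2 in 2 libraries.

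The label held against a marker that the rule did not use. Sftpc, surfactant protein C, a membrane-anchored peptide made chiefly by AT2 cells in the adult lung, gave a median of 1326 UMIs per member and at least 10 in every one. It made up 15% ± 0.153 (SD, n = 3) of all AT2 UMIs in WT normal lung, 13.1% ± 0.476 (n = 2) in LAIR1KO normal, 13.3% ± 0.437 (n = 3) in WT tumor-bearing and 13.4% ± 0.251 (n = 3) in LAIR1KO tumor-bearing lung. Sftpc had a far lower level in neutrophil and endothelial barcodes, which were chosen to hold no UMI of Lamp3. Values follow in the order of WT normal, LAIR1KO normal, WT tumor-bearing and LAIR1KO tumor-bearing lung. Neutrophil barcodes had 474, 218, 454 and 263 CPM (median depth 1687 to 2171 UMIs). Endothelial barcodes had 318, 151, 292 and 153 CPM (median depth 4000 to 8783 UMIs). AT2 barcodes had 149486, 132261, 135536 and 139296 CPM. The source of Sftpc UMIs in the other cells was not tested. Just inside the rule, the 7 members with 2 UMIs of Lamp3 had a median of 238 Sftpc UMIs, and the 5 barcodes just outside with 1 had 384. The 4 members with 5 to 9 Sftpb UMIs had a median of 26 Sftpc UMIs, and the 9 barcodes with 1 to 4 had 7. The 86 barcodes left out with 1 UMI of Cdh5 had a median of 1370 Sftpc UMIs, close to the 1326 of the members.

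The transcripts that set AT2 barcodes furthest apart from all other barcodes of their library are given as a description because the rule chose these cells. The other barcodes include 97, 145, 78 and 53 that met the AT2 minima and were left out by the limits on Cdh5, Col1a2 and C1q. Those held a median of 1334 Sftpc UMIs, so levels in the others are not levels of cells without AT2 transcripts, and the ratios are lowered. Among 1153 genes of at least 100 CPM in AT2 cells of all 4 libraries, the 15 with the largest median log2 ratio lay between 4.55 and 4.82. The lysozyme gene Lyz1 had the largest, with 2123, 1401, 1798 and 1771 CPM in AT2 barcodes against 81.5, 130, 56.7 and 48.5 CPM in the others. Surfactant proteins A, C and D (Sftpa1, Sftpc, Sftpd) stood beside the rule's own Sftpb, Lamp3 and Slc34a2. Scd1, the desaturase that makes monounsaturated fatty acids, had 8240, 11519, 9180 and 8122 CPM in AT2 barcodes and 498, 545, 256 and 168 CPM in the others. Cxcl15, a lung chemokine that attracts neutrophils, had 8250, 9574, 8023 and 8576 CPM against 483, 537.5, 250 and 172 CPM. Hc, complement component C5, had 1760, 1790, 1937 and 1862 CPM against 87.4, 96.8, 58.7 and 32.2 CPM. The lipoprotein receptor Lrp2, the mucin Muc1, Lgi3, Bex2 and Mlc1 completed the 15.

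**Figure D1:**
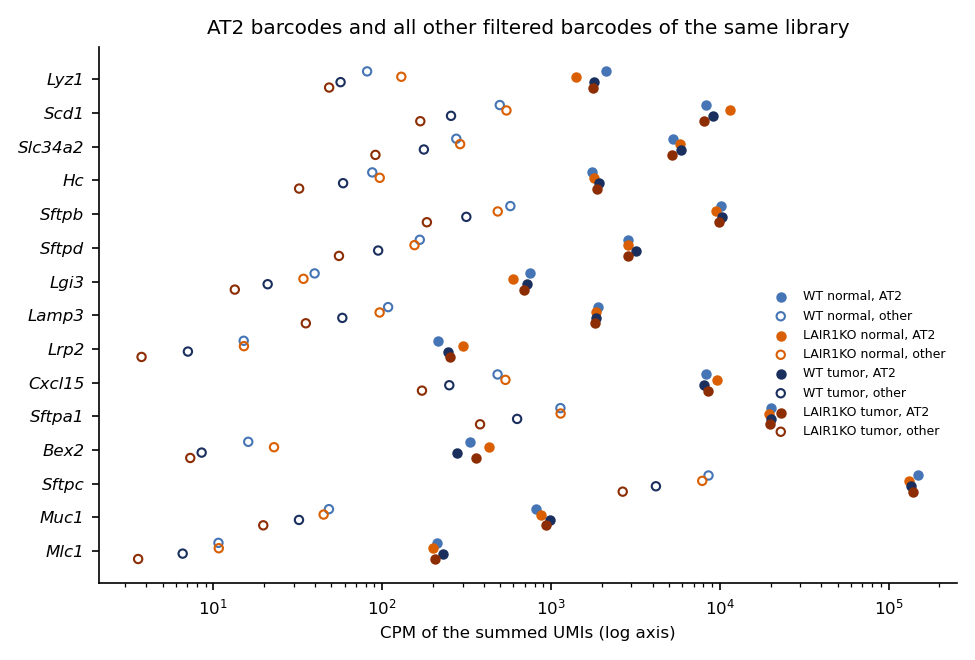
Level of the 15 leading AT2 transcripts in CPM of summed UMIs (log axis), in AT2 barcodes (filled) and in all other filtered barcodes (open) of the 4 libraries. The other barcodes include those that met the AT2 minima and were left out by the limits on Cdh5, Col1a2 and C1q. Every filled point lies to the right of every open point of its gene, and Sftpc reaches 149486 CPM in WT normal AT2 cells.

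Surfactant gene expression in this cell depends on NKX2-1, a homeodomain factor that binds sites with a CAAG core. The windows below, 200 bases long and with their last base 51 before the RefSeq start site (GRCm38.p6), are shown for 2 of the AT2 transcripts followed in all comparisons, because Lyz2 passed as lower in 2 of them and Sftpa1 passed the test in none. Sftpa1 encodes the collectin surfactant protein A and its window is at chr14:41131538-41131737 (+ strand). Lyz2 encodes the lysozyme shared by AT2 cells and macrophages and its window is at chr10:117282323-117282522 (− strand). Capitals mark matches to CAAGTG on either strand.
Sftpa1: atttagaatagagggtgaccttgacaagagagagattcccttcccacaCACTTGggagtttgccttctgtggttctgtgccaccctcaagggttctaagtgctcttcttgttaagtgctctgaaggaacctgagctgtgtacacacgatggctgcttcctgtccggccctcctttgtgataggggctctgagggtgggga
Lyz2: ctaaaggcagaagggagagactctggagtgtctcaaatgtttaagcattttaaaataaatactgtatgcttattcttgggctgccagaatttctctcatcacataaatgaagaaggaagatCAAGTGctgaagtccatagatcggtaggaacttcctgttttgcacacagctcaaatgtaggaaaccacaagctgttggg
Each window held 1 match, and 9.69% of 32514 such windows in the table held at least 1. TTGCNNAA, a C/EBP-like motif in 8.09% of all windows, and TGANTCA, an AP-1-like motif in 5.55%, had no match in either. Windows of other genes were searched and are not printed. The 2 windows of Errfi1 and those of Plet1, Lamp3, Slc34a2 and Sftpb had 0 matches to CAAGTG. The Plet1 window had 1 match to TTGCNNAA and 1 to TGANTCA. The matches are a description of the letters only.

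AT2 cells made up a smaller share of the LAIR1KO libraries. In whole libraries they were 10.5% of filtered barcodes in WT normal lung (exact 95% binomial interval 9.49 to 11.7), 2.65% in LAIR1KO normal lung (2.16 to 3.21), 11.7% in WT tumor-bearing lung (10.8 to 12.7) and 5.30% in LAIR1KO tumor-bearing lung (4.67 to 5.99), intervals that cover counting error only. By replicate, over barcodes with 1 hashtag, the share was 6.09, 10.5 and 10.2% in WT normal lung and 0.459, 1.55 and 3.42% in LAIR1KO normal lung. It was 6.26, 8.20 and 9.82% in WT tumor-bearing lung and 2.62, 2.75 and 6.57% in LAIR1KO tumor-bearing lung. The genotypes did not overlap in normal lung and did overlap in tumor-bearing lung.

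The difference between genotypes was −7.13 percentage points in normal lung (8.94% ± 2.47 in WT, 1.81% ± 1.496 in LAIR1KO, SD, n = 3 each), with an exact two-sided permutation p of 0.1, the smallest that 3 replicates against 3 allow. In tumor-bearing lung it was −4.12 points (8.10% ± 1.78 in WT, 3.98% ± 2.25 in LAIR1KO, exact permutation p = 0.2). Tumor-bearing and normal lung differed by −0.845 points in WT (exact permutation p = 0.6) and by 2.17 points in LAIR1KO (exact permutation p = 0.3). The member rule bears on these shares unequally. The limits on Cdh5, Col1a2 and C1q removed 22.9, 58.9, 13.4 and 17.9% of the barcodes that met the AT2 minima in WT normal, LAIR1KO normal, WT tumor-bearing and LAIR1KO tumor-bearing lung. Without these limits the LAIR1KO normal share was 5.25% ± 2.23 against 11.2% ± 2.41 in WT, still with no overlap and p = 0.1 in the exact permutation test, and the difference of tumor in LAIR1KO lung turned to −0.622 points (exact permutation p = 0.8). That difference had no overlap, at the smallest exact permutation p of 0.1, with the hashtag of most UMIs (2.63 points) and without members holding other cells' transcripts (2.48 points). The hashtag of most UMIs was taken where it had at least 10 UMIs and at least 3 times those of the second. Barcodes short of this were left out of that setting. In tumor-bearing lung the genotypes no longer overlapped without the limits (−5.24 points) or with the hashtag of most UMIs (−5.31 points), each at the smallest exact permutation p of 0.1. A share depends on how each lung was dissociated and on the numbers of all other cells, and their part in it was not tested.

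**Figure D2:**
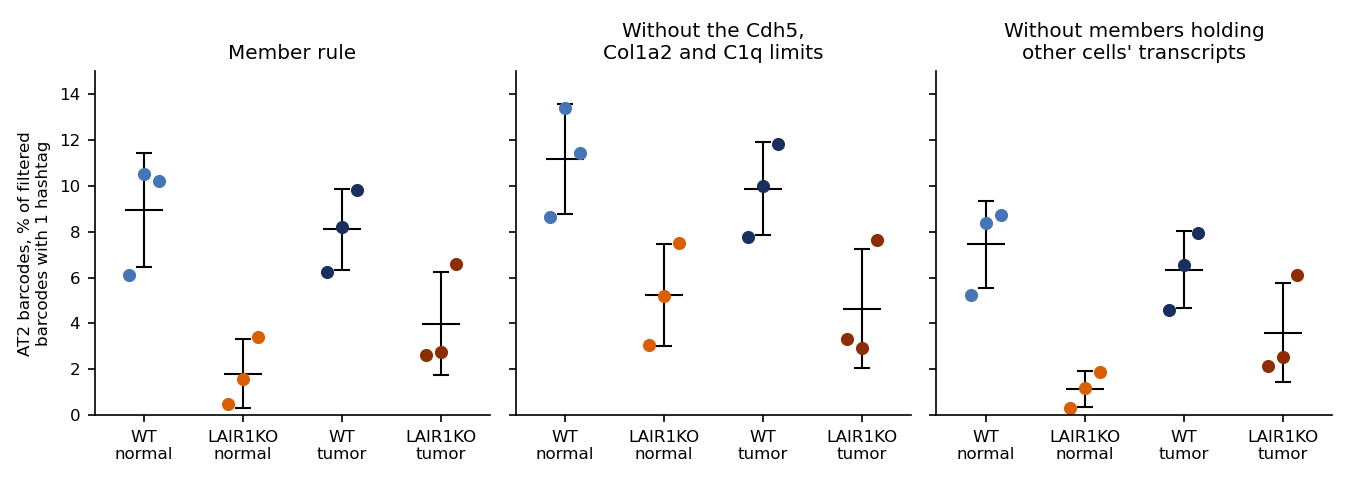
AT2 barcodes as a percentage of filtered barcodes with 1 hashtag, one point per replicate, with the mean and SD of 3 replicates, under the member rule, without its limits on other cells' genes, and without members holding other cells' transcripts. The LAIR1KO normal replicates lie below every WT normal replicate in all 3 panels.

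How far AT2 cells of one library differed among themselves was described by gene. Members were thinned to 4000 UMIs each to remove differences of depth, which left out 4, 1, 18 and 5 shallower members, and genes were ranked by variance over mean, whose median over 2326 genes was 1.07. Ordered by the lowest value over the 4 libraries Lyz1 came first, with 58.7, 58.3, 53.9 and 51.7 in WT normal, LAIR1KO normal, WT tumor-bearing and LAIR1KO tumor-bearing lung. A UMI of Lyz1 was found in 25.4, 24, 22.7 and 27.7% of thinned members (32.4, 33.7, 27.2 and 30.5% unthinned), and single members reached 160, 105, 157 and 116 thinned UMIs. Neutrophil barcodes of WT normal lung had Lyz1 in 3.17% at a median depth of 2171 UMIs and those of LAIR1KO normal lung in 1.67% at 1783. Most members thus had none and a minority had many, in similar proportion in the 4 libraries. S100a8 and S100a9 came next (lowest values 42.2 and 35.4), then the nuclear RNA Malat1 with 20.1 to 38.0. The AT2 product Sftpc itself had a variance over mean of 19.0 to 24.7, Scd1 of 16.6 to 29.3 and the heat shock gene Hspa1b of 15.5 to 20.6. The immediate early gene Fos, which tissue dissociation is known to induce, had 7.08 to 10.4. The neutrophil calprotectin genes S100a8 and S100a9 and the club cell secretoglobin Scgb1a1 ranked high through few members: the 10 highest members held 91.4, 93.4, 83.2 and 92.6% of S100a8 UMIs, and 1 LAIR1KO normal member held 3751 of 6466 Scgb1a1 UMIs.

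Proliferation transcripts were rare. UMIs of both proliferation genes Mki67 and Top2a were found in 0 of 327 members in WT normal lung, which allows a share of up to 0.917% of members with a UMI of both and sets no limit on cycling cells, in 1 of 101 in LAIR1KO normal, 3 of 503 in WT tumor-bearing and 2 of 243 in LAIR1KO tumor-bearing lung. Lair1 itself, the gene deleted in LAIR1KO mice, is an immune gene, and its UMIs in AT2 barcodes numbered 5 (in 1 member), 0, 3 (in 3 members) and 0 in that order of groups. These numbers are too small to check the genotype within AT2 cells.

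LAIR1KO normal AT2 barcodes stood apart in holding fibroblast transcripts. The 6 fibroblast markers other than Col1a2 (Col1a1, Col3a1, Dcn, Mgp, Pdgfra and Inmt) summed to 6.79 and 10.3 per 10000 UMIs in the 2 LAIR1KO normal replicates tested, against 0.814 to 0.978 in WT normal, 1.11 to 2.05 in WT tumor-bearing and 0.782 to 1.70 in LAIR1KO tumor-bearing replicates. Other barcodes of the libraries had 106, 62.5, 104 and 103. Endothelial markers ran from 0.804 to 1.19 in the LAIR1KO normal replicates and from 0.142 to 0.738 in all others. Neutrophil markers ran from 0.570 to 27.0 over all replicates with overlap of all groups, and the summed melanoma markers Pmel, Mlana, Dct, Tyr, Tyrp1 and Gpnmb did not pass 0.110 in any replicate, with Dct and Tyrp1 at 0 in all 4 groups. Erythroid markers did not pass 0.0670 and T and NK cell markers did not pass 0.214. Club cell markers ran from 5.51 to 21.7, AT1 markers from 14.6 to 31.2, ciliated markers from 0.631 to 3.33, macrophage markers from 0.123 to 0.416, alveolar macrophage markers from 0.0550 to 0.689 and B cell markers from 0 to 0.411. These ranges leave out members without a called hashtag. Over all members, club markers were at 67.2 in LAIR1KO normal lung, where 1 member held 3991 UMIs of them. They were at 12.7 in WT normal, 12.7 in WT tumor-bearing and 11.3 in LAIR1KO tumor-bearing lung.

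Members with at least 3 UMIs of fibroblast, endothelial, macrophage, alveolar macrophage, lymphoid or, at 10 and 100 UMIs, of neutrophil or club markers numbered 53, 23, 63 and 31, or 16.2, 22.8, 12.5 and 12.8% of AT2 barcodes. This limit was set after the data were seen. Without them the fibroblast markers were at 0.671, 0.369, 0.729 and 0.709 per 10000 UMIs in whole libraries (0.970, 4.06, 1.17 and 1.14 with them). Results below are given with these members, and without them where stated. Leaving them out left only LAIR1KO normal replicate 3, with 11 cells, above the minimum in that group, whereas the hashtag with the most UMIs in place of the stricter hashtag call kept 21, 18 and 16 such cells in its 3 replicates.

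The first comparison asked whether AT2 cells of normal lung differed between genotypes. With all members, 61 of 7201 genes tested (0.847%) passed an adjusted p of 0.05 in edgeR's quasi-likelihood test with Benjamini-Hochberg adjustment, 51 higher (0.708%) and 10 lower (0.139%) in LAIR1KO, 6 of them on the X or Y chromosome. The transcripts higher in LAIR1KO with the smallest p outside the sex chromosomes were of stromal cells: the elastic fibre protein Mfap4, the plasma glutathione peroxidase Gpx3, the matrix protein Mgp and the methyltransferase Inmt. Mfap4 (chr11:61485431-61488900) had 8.14, 6.70 and 10.7 CPM in the WT replicates and 188 and 230 CPM in the LAIR1KO replicates. Gpx3 had 12.2, 10.7 and 14.2 CPM against 206 and 395 CPM, and Mgp 57.0, 63.0 and 48.7 CPM against 420 and 580 CPM. The groups did not overlap for any of them, as for 16.5% of all genes tested in this direction and 30.0% in either.

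Also higher in LAIR1KO normal lung were the actin-severing protein Gsn (2.003 ± 0.23 log2, SE), the cytoskeletal linker Macf1 (1.86 ± 0.19), the monooxygenase Fmo2 (3.18 ± 0.33), elastin Eln (4.49 ± 0.48), biglycan Bgn, Cdo1, Itga8, Serping1 and the receptor Pdgfra, with an edgeR adjusted p of 9.05e-07 for Fmo2 and 1.24e-06 for Eln. In LAIR1KO normal lung 88.1% of Mfap4 and 94.5% of Gpx3 UMIs, which the definition of these members did not use, lay in the 23 members with other cells' transcripts. Mgp and Inmt are among the fibroblast markers that define them, so that their 92.2 and 97.2% and their values without these members follow in part from the definition. Without those members Mfap4 stood at 16 CPM in the library, Gpx3 at 11.1, Mgp at 23.4 and Inmt at 4.92, against 5.96, 8.64, 43.5 and 12.5 CPM in WT normal lung. The proliferation gene Top2a, called higher, came from 24 UMIs in 1 LAIR1KO member.

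**Figure D3:**
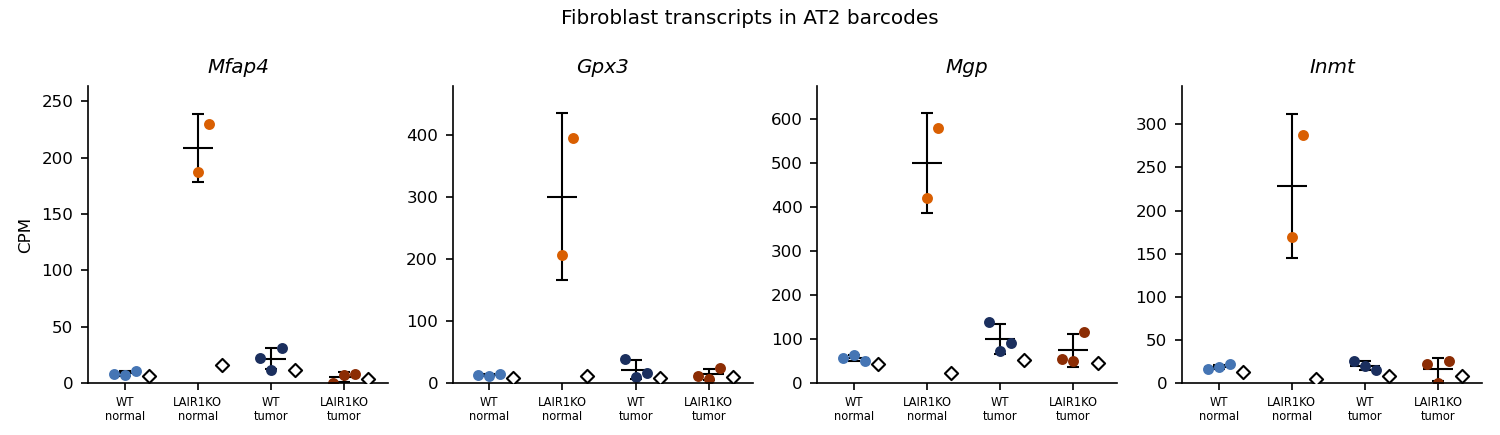
CPM of 4 fibroblast transcripts in AT2 barcodes, one filled point per replicate with mean and SD (n = 3, LAIR1KO normal n = 2), and the whole library without members holding other cells' transcripts (open diamond). Mfap4 reaches 188 and 230 CPM in the LAIR1KO normal replicates, and all open diamonds lie near the values of the other groups, which for Mgp and Inmt follows in part from the markers that define the members left out.

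Among transcripts that AT2 cells make themselves, those of surfactant protein C (Sftpc), the lysozyme gene Lyz2 and 2 of 6 tested MHC class II genes passed as lower in LAIR1KO normal lung. Sftpc (chr14:70520949-70524081, − strand) had 148589, 151641 and 149887 CPM in the WT replicates and 133929 and 127199 CPM in the LAIR1KO replicates, a log2 difference of −0.28 ± 0.04 (SE; edgeR adjusted p = 3.14e-04). Lyz2 had 18231, 19590 and 18442 CPM against 13522 and 16625 CPM (−0.39 ± 0.09, edgeR adjusted p = 0.0323). H2-Ab1, a chain of the MHC class II dimer, had 728, 678 and 642.5 CPM against 465 and 296 CPM (−0.98 ± 0.20, edgeR adjusted p = 0.0091), and Cd74, its chaperone, had 4439, 4514 and 4495 CPM against 3682 and 3225 CPM (−0.46 ± 0.11, edgeR adjusted p = 0.0334). For all 4 the 2 LAIR1KO replicates lay below the 3 WT replicates, as for 13.5% of all genes tested. Sftpc passed in 22 of 25 alternatives and H2-Ab1 in 21, but Lyz2 and Cd74 in 11 each.

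The calls of class II genes and Lyz2 changed with the processing. The hashtag of most UMIs also brings LAIR1KO normal replicate 1 into the tests, with 30 cells. With the hashtag of most UMIs H2-Ab1 was at −0.31 (edgeR adjusted p = 0.618), Cd74 at −0.21 (0.501) and Lyz2 at −0.27 (0.0897), whereas Sftpc was at −0.19 (0.0183). Lyz2 and Cd74 also missed the threshold with RLE size factors (edgeR adjusted p = 0.0641 and 0.0846). When members with other cells' transcripts were left out as well, Sftpc was at −0.14 (edgeR adjusted p = 0.453). In that setting 13 genes passed, 4 of which had passed with all members: Xist, Ddx3y, Eif2s3y and Ddx3x, all on the sex chromosomes. Uty, Eif2s3x, the surfactant-lipid transporter Mfsd2a (1.42 ± 0.28, edgeR adjusted p = 0.017), the stress gene Nupr1, Itih4, 3 ribosomal genes and Scgb1a1 passed anew, and are named here after their values were seen. Scgb1a1 was at 8592 CPM in neutrophil barcodes of LAIR1KO normal lung and at 68.2 CPM in those of WT normal lung. The median neutrophil barcode held 0 UMIs of Scgb1a1 in each of these libraries. Endothelial barcodes had 101 CPM of Scgb1a1 in LAIR1KO normal and 41.6 CPM in WT normal lung.

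Other AT2 transcripts named in every comparison did not pass: Sftpa1 was at −0.17 ± 0.09, Sftpd at −0.33 ± 0.14, Cxcl15 at 0.08 ± 0.10, the lipid transporter of lamellar bodies Abca3 at −0.12 ± 0.13 and the surfactant-processing protease Napsa at −0.08 ± 0.11 (log2, SE; edgeR adjusted p from 0.495 to 0.931). Anxa1, an anti-inflammatory phospholipid-binding protein, was lower, with 354, 418 and 274 CPM against 197 and 148 CPM (−1.14 ± 0.24, edgeR adjusted p = 0.014). With the hashtag of most UMIs Anxa1 was at −0.32 (edgeR adjusted p = 0.79), and without mixed members at −1.86 (edgeR adjusted p = 0.166). Tsc22d1 and Timm23 were lower too and passed in 6 and 12 of 25 alternatives.

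In tumor-bearing lung no gene passed between the genotypes. Of 7201 genes 0 (0%) reached an adjusted p of 0.05 in edgeR, 359 had an unadjusted p under 0.05, and DESeq2 likewise called 0 with 174 under 0.05. Sftpc had 136796, 128066 and 132812 CPM in WT and 136250, 131356 and 134762 CPM in LAIR1KO replicates, which overlapped (0.048 ± 0.038 log2). Lyz2 was at −0.13 ± 0.08, H2-Ab1 at −0.32 ± 0.16, Cd74 at −0.15 ± 0.09 and Clu at −0.26 ± 0.21. Errfi1, an inhibitor of the EGF receptor, had 1010, 1012 and 1051 CPM in WT and 1275, 1379 and 1288 CPM in LAIR1KO replicates without overlap, as for 4.78% of all genes in that direction and 6.18% in the other, and did not pass (0.39 ± 0.11, edgeR adjusted p = 0.931). Counts simulated from these replicates with a 4-fold change were recovered in 90% of changed genes and with a 2-fold change in 35%, so that smaller differences were often not detectable with these replicates, cells and depths.

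The third comparison set WT tumor-bearing against WT normal lung. Of 7201 genes 11 passed in edgeR (0.153%), 3 higher (0.0417%) and 8 lower (0.111%), 4 of them sex-linked (Xist, Ddx3y, Eif2s3y and Uty). Sftpc was lower, at 136796, 128066 and 132812 CPM against 148589, 151641 and 149887 CPM (−0.25 ± 0.04 log2, edgeR adjusted p = 0.0015). Lyz2 was lower, at 13295, 15393 and 15078 CPM against 18231, 19590 and 18442 CPM (−0.43 ± 0.08, edgeR adjusted p = 0.0137). For both, each tumor-bearing replicate lay below each normal replicate, as for 4.67% of all genes tested. They passed in 17 and 19 of 25 alternatives, and without members holding other cells' transcripts the edgeR adjusted p was 0.0674 for Sftpc and 0.0199 for Lyz2. With the hashtag of most UMIs as well, neither passed (Sftpc at −0.21, edgeR adjusted p = 0.0986, and Lyz2 at −0.35, 0.121).

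Clu, clusterin, a secreted chaperone also raised in epithelial cells in transition after injury, was higher. Clu (chr14:65968483-65981547, + strand) had 264.5, 221 and 198 CPM in normal and 369, 715 and 399 CPM in tumor-bearing replicates, with no overlap, as for 9.29% of all genes tested (1.07 ± 0.20 log2, edgeR adjusted p = 0.0152). It was detected in 45.2% of thinned members in normal and 64.7% in tumor-bearing WT lung (71.6 and 77.3% unthinned). WT normal neutrophil barcodes, not thinned and with a median depth of 2171 UMIs, held it in 2.15%. Clu was also found in endothelial barcodes, in 54.5% at 225 CPM in WT normal and 56.5% at 311 CPM in WT tumor-bearing lung. It passed in 21 of 25 alternatives, without the mixed members among them (1.17, edgeR adjusted p = 0.00333). In LAIR1KO lung Clu had 206 and 267 CPM in normal and 308, 369.5 and 500.4 CPM in tumor-bearing replicates, again without overlap but short of the threshold (0.77 ± 0.28, edgeR adjusted p = 0.46).

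The EGF receptor inhibitor Errfi1 was lower in WT tumor-bearing lung, at 1010, 1012 and 1051 CPM against 1536, 1402 and 1300 CPM (−0.53 ± 0.11, edgeR adjusted p = 0.0317). It passed in 14 of 25 alternatives and was at −0.25 with the hashtag of most UMIs (edgeR adjusted p = 0.763). In LAIR1KO lung Errfi1 had 2136 and 1773 CPM in normal and 1275, 1379 and 1288 CPM in tumor-bearing replicates, just short of the threshold (−0.53 ± 0.12, edgeR adjusted p = 0.0502). Plet1, a marker of alveolar macrophages also made by some epithelia, had 14.2, 10.7 and 7.13 CPM in normal and 28.9, 44.0 and 64.3 CPM in tumor-bearing replicates (2.15 ± 0.40, edgeR adjusted p = 0.0137). In the tumor-bearing library 50.8% of its UMIs lay in members with other cells' transcripts, and without them it was at 0.998 (edgeR adjusted p = 0.793). Plet1 is itself among the alveolar macrophage markers that define those members, so that both values follow in part from the definition. The 2 further calls, mt-Atp6 (−0.52 ± 0.08) and Rpl21 (−0.51 ± 0.10), fall outside the rule for named genes and are named because so few passed. This comparison and that of genotype in normal lung share the WT normal replicates, the male library, whose Sftpc and Lyz2 lie above those of every replicate of the other groups.

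**Figure D4:**
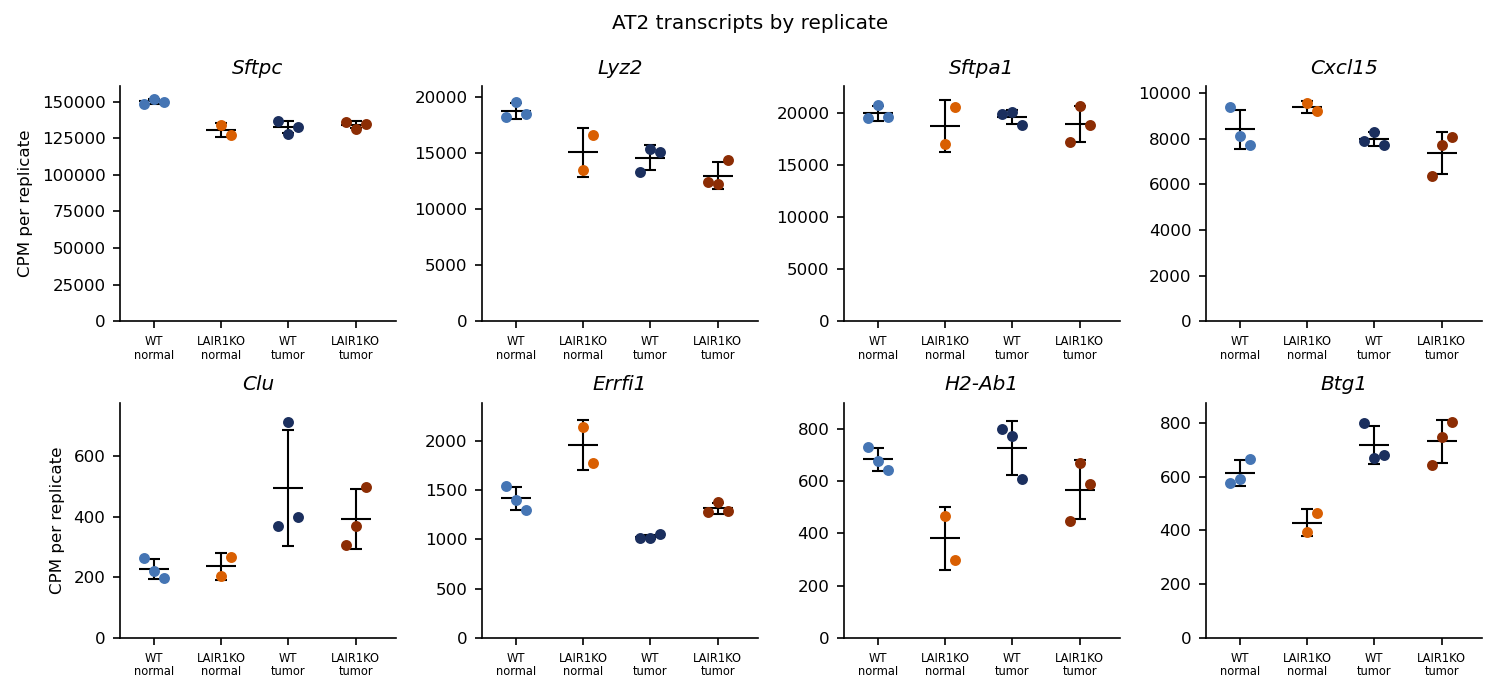
CPM of 8 AT2 transcripts per replicate (points) with mean and SD in the 4 groups (n = 3, LAIR1KO normal n = 2), axes from 0. The 3 WT normal replicates are the highest for Sftpc, at 148589 to 151641 CPM, and for Lyz2.

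The fourth comparison set LAIR1KO tumor-bearing against LAIR1KO normal lung. Of 7201 genes 40 passed in edgeR (0.555%), 2 higher (0.0278%) and 38 lower (0.528%). The lower genes included Mfap4, Gpx3, Mgp and Inmt. This comparison shares the LAIR1KO normal replicates with the first. Mfap4 had 188 and 230 CPM in normal and 0, 7.11 and 8.34 CPM in tumor-bearing replicates, and Gpx3 206 and 395 CPM against 11, 7.11 and 23.4 CPM. With the hashtag of most UMIs and without mixed members 2 genes passed, neither of them among the 40 and both named after their values were seen: the fatty acid binding protein Fabp5 (−0.76 ± 0.14, edgeR adjusted p = 0.039) and the nuclear RNA Malat1 (0.38 ± 0.07, edgeR adjusted p = 0.0396).

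The higher genes were Btg1 and Chia1. Btg1, an antiproliferative factor, had 393 and 465 CPM in normal and 643, 746 and 804 CPM in tumor-bearing replicates (0.79 ± 0.17, edgeR adjusted p = 0.0213). Chia1, an acidic chitinase of AT2 and airway cells, had 188 and 140 CPM against 467, 256 and 320 CPM (1.17 ± 0.27, edgeR adjusted p = 0.0465). Neither overlapped between the groups, as for 11.8% of all genes in this direction. They passed in 18 and 7 of 25 alternatives, and Chia1 was at 1.59 without mixed members (edgeR adjusted p = 0.278). Lrg1, an inflammation-induced glycoprotein, was lower, with 822 and 535 CPM against 324, 128 and 243.5 CPM (−1.43 ± 0.31, edgeR adjusted p = 0.0255), and was at −0.34 with the hashtag of most UMIs (edgeR adjusted p = 0.904) and at −1.65 without mixed members (edgeR adjusted p = 0.0993). Sftpc (0.078 ± 0.043), Lyz2 (−0.18 ± 0.09), Sftpa1 (0.05 ± 0.086) and Cxcl15 (−0.30 ± 0.10) did not pass (edgeR adjusted p from 0.336 to 0.954). The polyamine enzyme Odc1 and the BMP targets Id1 and Id3 were lower with all members and were at −0.63, −0.42 and −0.039 without the mixed members and with the hashtag of most UMIs (edgeR adjusted p from 0.786 to 1).

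The difference between tumor-bearing and normal lung was itself compared between the genotypes, by the interaction term of the same fit. That term uses all 4 groups and so shares their replicates with the comparisons above. Of 7201 genes 18 passed in edgeR (0.25%). Of the AT2 genes named in every comparison Sftpc passed, at 0.33 ± 0.06, and Lyz2 did not (0.26 ± 0.12, edgeR adjusted p = 0.729). For Clu the difference between the genotypes was −0.29 ± 0.35 (edgeR adjusted p = 0.937), so that its rise in WT was not shown to differ from that in LAIR1KO lung. Btg1 was at 0.64 ± 0.21 (edgeR adjusted p = 0.47).

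The gene lists gave few calls in any comparison. Of 13 tested surfactant and lamellar body genes only Sftpc passed, lower in LAIR1KO normal and in WT tumor-bearing lung, and the list's median log2 differences were −0.12 in LAIR1KO normal, −0.016 between genotypes in tumor-bearing lung, −0.06 with tumor in WT and 0.05 with tumor in LAIR1KO lung. The medians of all 7201 genes were −0.022, 0.0014, 0.0019 and 0.027 in that order. Of 13 AT2 transcription factors, such as Nkx2-1 and Etv5, none passed in any. Of 18 genes of AT1 cells none passed, with medians of −0.20, 0.034, 0.14 and 0.41, and with the hashtag of most UMIs the last was −0.066. Of 21 genes of the transitional epithelial state, which precedes the AT1 fate after injury, Clu alone passed, higher in WT tumor-bearing lung. The medians of that list were 0.033 and −0.029 between genotypes in normal and tumor-bearing lung and 0.23 and 0.44 with tumor in WT and LAIR1KO lung. Its keratin Krt8 had 488, 706 and 688 CPM in WT normal and 968, 841 and 910 CPM in WT tumor-bearing replicates, without overlap but short of the threshold (0.45 ± 0.14, edgeR adjusted p = 0.411).

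Genes of cholesterol and fatty acid synthesis, which feed surfactant lipid, leaned together without single calls. None of 34 tested passed in any comparison. In LAIR1KO normal lung their median was 0.24, and 17 of 34 lay above the WT replicates without overlap and 0 below, against 16.5 and 13.5% of all genes. With tumor in LAIR1KO lung the median was −0.22, and 2 lay above and 11 below without overlap, against 11.8 and 11.7% of all genes. Both comparisons share the 2 LAIR1KO normal replicates. Between genotypes in tumor-bearing lung the median was −0.024 and with tumor in WT lung −0.0037. With the hashtag of most UMIs the medians in LAIR1KO normal lung and with tumor in LAIR1KO lung were 0.047 and −0.063. When members with other cells' transcripts were left out as well, they were 0.14 and −0.29. Scd1, the most abundant member, had 8213, 8661 and 6616 CPM in WT normal, 10099 and 9668 CPM in LAIR1KO normal, 8591, 8131 and 10136 CPM in WT tumor-bearing and 10220, 4768 and 7285 CPM in LAIR1KO tumor-bearing replicates.

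Of 6 tested genes of MHC class II presentation, H2-Ab1 and Cd74 passed in LAIR1KO normal lung, both lower, and 4 lay below the WT replicates without overlap, against 0.139% of all genes called lower and 13.5% lower without overlap, with a list median of −0.59 (−0.24 with the hashtag of most UMIs). H2-Aa, their partner chain, had 917.5, 1030 and 977 CPM against 903 and 564 CPM and did not pass (−0.53 ± 0.17, edgeR adjusted p = 0.28). Of 17 interferon-stimulated genes none passed with tumor, where the medians were 0.43 in WT and 0.22 in LAIR1KO lung (0.30 and −0.077 with the hashtag of most UMIs). Ly6e among them had 684, 549 and 524 CPM in WT normal and 891.5, 923 and 770 CPM in WT tumor-bearing replicates (0.49 ± 0.14, edgeR adjusted p = 0.328). Of 18 heat shock genes none passed in any comparison, with a median of 0.35 with tumor in LAIR1KO lung.

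Other lists gave a few calls. Those given first were higher in LAIR1KO normal lung, where 0.708% of all genes were called higher. Gpx3 and Sod3 passed among 32 oxidative stress genes, and Serping1 and Thbd among 11 complement and coagulation genes. Id3 and Fgfr1 passed among 31 niche signals and receptors. Ifitm3 passed among the interferon-stimulated genes and the collectin Colec12 among 8 receptors and ligands around LAIR1. Without mixed members and with the hashtag of most UMIs, Id3 and Ifitm3 were tested and did not pass, and the others were too low to be tested. Gpx3, Serping1, Thbd, Id3 and Colec12 also passed as lower with tumor in LAIR1KO lung, which shares the LAIR1KO normal replicates. There 0.528% of all genes were called lower. Of the niche list Id1 was also lower in that comparison, and Errfi1 was lower in WT tumor-bearing lung, where 0.111% of all genes were called lower. Surfactant proteins A and D, collagen-domain proteins of the list around LAIR1, did not pass in any of the 4 comparisons. Of 29 immediate early genes Cebpb passed, higher in LAIR1KO normal lung (0.99 ± 0.23, edgeR adjusted p = 0.0359), and Btg1 with tumor in LAIR1KO lung. Cebpb passed in 17 of 25 alternatives and turned to −0.40 without mixed members (edgeR adjusted p = 0.814) and to −0.042 with the hashtag of most UMIs as well (edgeR adjusted p = 0.985). Of 19 genes of the inflammatory AT2 state Lyz2 passed in LAIR1KO normal and WT tumor-bearing lung, and Chia1 and Lrg1 in opposite directions with tumor in LAIR1KO lung. Of 19 glucocorticoid and circadian genes Errfi1 passed, lower in WT tumor-bearing lung, and of 13 cell cycle genes Top2a passed, in LAIR1KO normal lung. Phospholipid synthesis (24 tested), MHC class I presentation (19), chemokines and cytokines (19), ion, water and solute transport (20), junctions (26), the unfolded protein response (26) and hypoxia and glycolysis (22) gave 0 calls in all 4 comparisons.

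**Figure D5:**
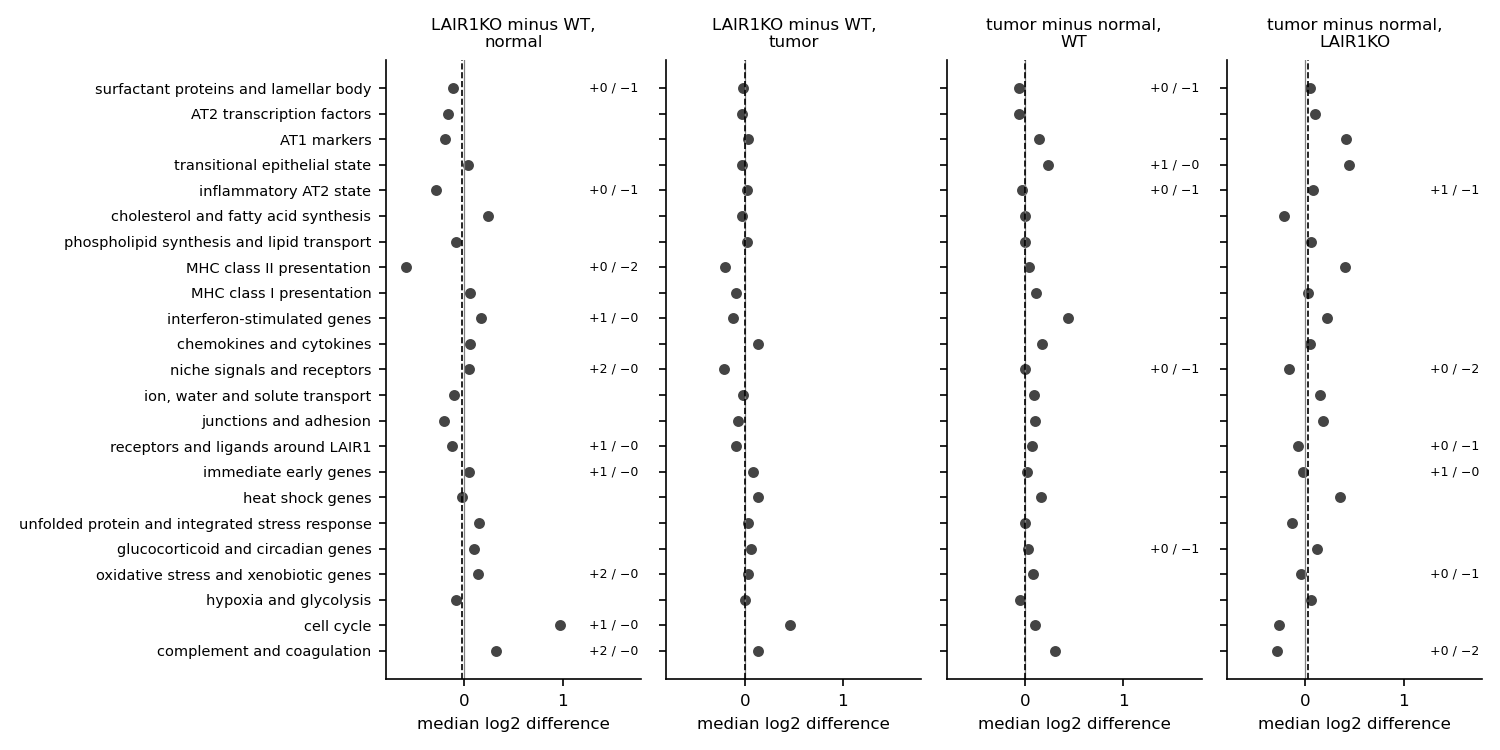
Median log2 difference of each of 23 gene lists (points) in the 4 comparisons, with the median of all tested genes (dashed) and, at the right, the number of list genes that passed higher (+) and lower (−). MHC class II genes lie furthest to the left in normal lung, at −0.59, and the transitional list lies at 0.23 and 0.44 with tumor.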

How the data were processed

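Per the labels, each library was made with a 10x Genomics 3′ kit (version 3) with hashtag antibodies. The authors deposited matrices of UMI counts, not normalized, for which the submitters' processing notes list mm10, STAR and Cell Ranger 4.0.0. Libraries held 25216301 to 28034709 gene UMIs, and AT2 cells 1125974 to 4269970. Hashtags were called per library with HTODemux (Seurat 5.3.0, R 4.3.3, positive quantile 0.99). AT2 UMIs were summed per replicate with at least 10 cells (111888 to 841989 UMIs) and fitted together for all groups in edgeR 4.0.16 (TMM, filterByExpr, quasi-likelihood F test, genes of the member rule not tested), with DESeq2 1.42.0 among the alternatives. Replicates share one library per group, so p-values do not cover differences between libraries. The fit was tested on simulated counts. Doublets were marked with Scrublet (scanpy 1.11.5; 7, 0, 5 and 1 AT2 barcodes) and stayed in, except in an alternative. Neutrophil barcodes were those with at least 20 UMIs of S100a8 and S100a9 and 1 of Csf3r, endothelial ones those with at least 3 of Cldn5 and 1 of Cdh5 and none of Ptprc, both without Lamp3. Positions are of GENCODE vM21 and windows of RefSeq.

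Named per comparison were up to 10 genes in each direction by smallest p, among calls of at least 1.5-fold, 20 CPM and no overlap. Y-linked, Xist, ribosomal and mitochondrial genes were left out. Always named were the AT2 genes Sftpc, Sftpa1, Sftpd, Abca3, Napsa, Lyz2 and Cxcl15, and Lair1. Of 23 gene lists, up to 4 called members or the 2 most abundant were named. The members and lists were chosen with earlier results of these data known.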

Additional observations from a re-analysis of the deposited data

Results flagged for a closer look

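The difference of AT2 barcodes between tumor-bearing and normal lung was unlike in LAIR1KO and WT for 18 of 7201 genes (0.25%). This is by the interaction term of the edgeR fit, with 1 library per group, so that tumor cannot be told apart from library. Given as the log2 difference in LAIR1KO minus that in WT, these included −6.17 (Mfap4), −3.18 (Mgp), −2.38 (Gsn), −4.54 (Gpx3), −4.02 (Bgn), −1.77 (Macf1), −3.00 (Fmo2), −3.45 (Inmt), −4.02 (Eln), −1.82 (Npnt), −5.80 (Itga8), −3.41 (Sparcl1) and −3.51 (Fhl1). Odc1 was at −2.47 and the matrix glycoprotein Thbs1 at −1.40. The sex-linked Xist was at −9.13 and Rps4x, on the X chromosome, at 0.83, with males in the WT normal group alone.

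Sftpc was at 0.33 ± 0.06 (edgeR adjusted p = 0.0042): it differed by −0.25 with tumor in WT and by 0.08 in LAIR1KO lung. It passed in 11 of 24 alternatives and was at 0.28 without the members that held other cells' transcripts (edgeR adjusted p = 0.547), where LAIR1KO normal lung rests on 1 replicate. Without those members 4 genes passed, of which Xist was among the 18. The fibroblast markers of LAIR1KO normal AT2 barcodes, 6.79 and 10.3 per 10000 UMIs in its 2 replicates, move with Mfap4, Gpx3, Mgp and Inmt, and their part in these values was not tested.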

How the results depend on the processing

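The number of genes called moved with the members, the hashtag calls and the filter. Without a filter on low counts 161 genes passed for genotype in normal lung (61 in the main test), 18 for genotype in tumor-bearing lung (0), 35 for tumor in WT (11), 88 for tumor in LAIR1KO (40) and 48 for the interaction (18). Without members holding other cells' transcripts these were 16, 1 (Sprr1a), 11, 5 and 4, and with the hashtag of most UMIs as well 13, 0, 10, 2 and 1. With that hashtag alone tumor in LAIR1KO gave 23 and the interaction 10. Without the Cdh5, Col1a2 and C1q limits 624, 482 and 70 passed for genotype in normal lung, tumor in LAIR1KO and the interaction. With no minimum of cells 30, 6 and 23 passed for genotype in normal lung, tumor in WT and tumor in LAIR1KO. At least 20 cells gave 15 and a fit of only the 2 groups 24 for tumor in LAIR1KO. For tumor in WT, leaving out X and Y genes gave 7 and DESeq2 21. The causes were not tested.

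Leaving out one replicate gave 13 to 63, 0 to 0, 4 to 15, 7 to 43 and 7 to 19 calls. The lowest came without LAIR1KO normal replicate 3 for genotype in normal lung (13), tumor in LAIR1KO (7) and the interaction (7), and without WT normal replicate 2 for tumor in WT (4). Tumor in LAIR1KO fell to 19 without LAIR1KO normal replicate 2 and to 20 without LAIR1KO tumor-bearing replicate 3. Tumor in WT gave 5 and 7 without WT normal replicates 1 and 3 and 6 without WT tumor-bearing replicate 2. The differences in AT2 share ranged from −8.55 to −6.35, −5.41 to −3.25, −2.27 to 0.0729 and 0.872 to 2.97 points. Over barcodes without Ptprc, the pan-leukocyte gene, the share differed by −14.8 and −8.67 points between genotypes and by 5.14 with tumor in LAIR1KO, and without the rule's limits by −0.622 with tumor in LAIR1KO.

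Of 2347 values for 98 gene results, 2006 kept their side of the threshold, 310 lost a call, 13 gained one and 18 turned in direction. A gene not called in the main test was counted as turned only where it also passed. Other changes of direction of such genes are among the 2006. Without mixed members genotype in normal lung turned to −0.40 (Cebpb), −5.61 (Inmt) and −1.54 (Mgp), tumor in LAIR1KO to 0.062 (Fmo2), 5.39 (Inmt) and 1.48 (Mgp), and the interaction to 6.21 (Inmt) and 1.31 (Mgp). With the hashtag of most UMIs as well, they were −0.042 (Cebpb), −0.71 (Gsn) and −0.69 (Mgp), then 0.67 (Gsn), 0.12 (Macf1) and 0.69 (Mgp), and 0.58 (Gsn) and 0.51 (Mgp). Mgp and Inmt are among the markers that define the mixed members, so that their turns follow in part from the definition. Without mixed members alone, LAIR1KO normal lung rests on 1 replicate of 11 cells. Inmt was then at 4.92 CPM in the whole LAIR1KO normal library. Without the limits Cxcl15 was at −0.38 in normal lung and Eln at 0.086 with tumor in LAIR1KO. No paired analysis was possible because nothing in the labels ties a hashtag number in one library to that number in another. With these replicates, cells and depths, simulated 2-fold changes were recovered at 60% for tumor in WT, 35% for genotype in tumor-bearing lung, 23% for genotype in normal lung and 17% for tumor in LAIR1KO. How far depth alone limits this was not tested.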
